A study of Mus musculus with 13 samples.

Results

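Bulk RNA of 6 foregut libraries was compared across all genes: 3 from E10.5 mouse embryos that carried Foxg1Cre;Gli3TFlag/+ (mutants) and 3 from E10.5 embryos that carried Gli3TFlag/+ without Cre (controls). They were chosen by their labels alone, as the only foregut libraries among the 13 libraries of the series, while the other 7 came from tracheas of a later stage and were not used. Gli3TFlag is a Cre-dependent allele of a truncated, Flag-tagged Gli3 that acts as a repressor, and both groups carried 1 copy of it. The Cre recombines in the foregut mesendoderm, so mesenchyme and epithelium were both exposed to the repressor. The Cre was present only in mutants, so an effect of the Cre allele and an effect of the repressor cannot be told apart. The sample labels give the strain as C57BL/6, while the study's methods describe an outbred background. Each library was made from a separate embryo dissection.

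Hedgehog (HH) ligands made by the foregut epithelium signal to the surrounding splanchnic mesenchyme. There the transcription factors Gli2 and Gli3 act as activators when the pathway is on, while Gli3 is cut to a repressor when it is off. In the foregut mesenchyme the pathway is known for maintaining the forkhead factors Foxf1 and Foxf2 and the growth of the mesenchyme that later forms tracheal cartilage and smooth muscle.

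The deposited counts, as RSEM estimated them for each gene symbol, came to between 15.4 and 17.99 M per library. Their totals did not separate the groups (exact permutation test, two-sided, p = 0.3). With 3 libraries against 3 the smallest p of that test is 0.1. Of 32793 genes in the table, 15295 had enough counts to be tested. Values are given as CPM, counts relative to the size of the library after scaling by TMM factors of 0.978 to 1.04. Genes at 1 CPM or more numbered 13927, 13981 and 13742 in controls against 14448, 14281 and 14335 in mutants, so each mutant library had more expressed genes than each control (exact permutation test, p = 0.1, the smallest possible). The 4 most counted genes, Lars2 and 3 named only by a sequence accession, took 17.7 to 22.8% of the counts of a library (exact permutation test, p = 0.2).

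Some libraries stood apart in cell content. Mutant 2 had heart muscle RNA: Myh7, the slow heavy chain of cardiac myosin, was at 340.1 CPM there and at 1.99 to 6.80 CPM in the others. The cardiomyocyte markers together took 0.0424, 0.0406 and 0.0429% in controls against 0.0656, 0.315 and 0.0477% in mutants. Mutant 3 had neuronal RNA, with the neurofilament Nefl at 493 CPM against 5.61 to 13.9 CPM elsewhere, and the neural crest and neuron markers took 0.0353, 0.0285 and 0.0405% in controls against 0.0217, 0.0289 and 0.317% in mutants. Control 3 had little red blood cell RNA. The embryonic globin Hbb-y was at 552 CPM there and at 4062 to 7562 CPM in the others. Counting genes at least 1 log2 unit above every other library gave 84 in mutant 2, 224 in mutant 3 and at most 2 in each of the other 4, and 92 genes lay as far below every other library in control 3. Xist, transcribed from the inactive X of females, was at 1827 and 1820.5 CPM in mutants 1 and 2 and at most 11.7 CPM in the other 4, so genotype and sex were partly confounded. The plot of marker shares shows the 3 outlying libraries beside lists on which the libraries lay closer together.

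**Figure D1:**
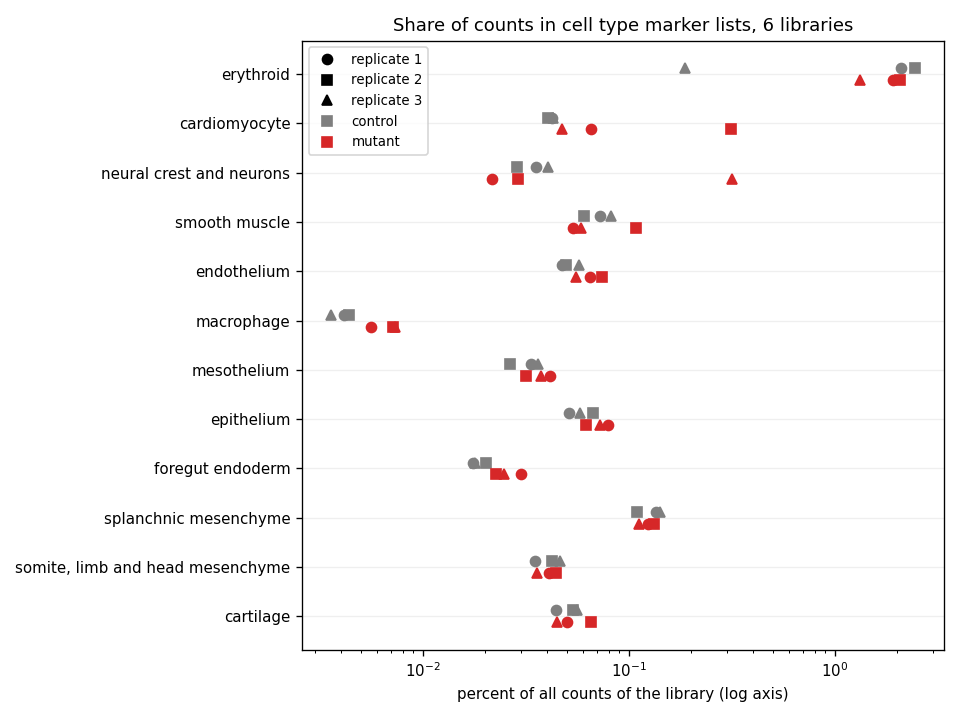
Share of all counts of a library taken by 12 lists of cell type markers (horizontal axis in percent, logarithmic). Each point is 1 library, grey for controls and red for mutants, with the marker shape giving the replicate. Cardiomyocyte markers were at 0.315% in mutant 2, neural crest and neuron markers at 0.3165% in mutant 3, and erythroid markers at 0.187% in control 3, each away from the other libraries.

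Gli3, which is read from the transgene and the endogenous locus together, had 261, 255 and 289 CPM in controls against 337, 329.6 and 359 CPM in mutants, and all mutants lay above all controls (log2 fold change 0.35, adjusted p = 0.0588 in edgeR's quasi-likelihood test, adjusted over all genes as for each adjusted p below).

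Across the 15295 genes, 18 fell (0.118%) and 21 rose (0.137%) by 1 log2 unit or more with an adjusted p up to 0.05 in edgeR's quasi-likelihood test. At the adjusted p alone, 62 genes fell (0.405%) and 48 rose (0.314%). The 18 and 21 genes had no overlap between groups, a pattern shown by 13.3% of all genes in the lower direction and by 11.7% in the higher. An unadjusted p under 0.05 was reached by 1462 lower genes (9.56%) and 1412 higher genes (9.23%), many more than passed the adjustment. The median log2 fold change of all genes was 0.03, and 54.8% of genes lay above 0. Of the 62 falling genes, 44 changed by less than 1 log2 unit, against 27 of the 48 rising genes, a difference that was not tested. DESeq2, whose calls are given beside edgeR's below, called 438 genes lower and 359 higher at the adjusted p alone. Lists and families below were chosen with earlier results of these data known, so their shares beside those of all genes are description only. A gene with few counts in 1 group could be tested through the other group alone.

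**Figure D2:**
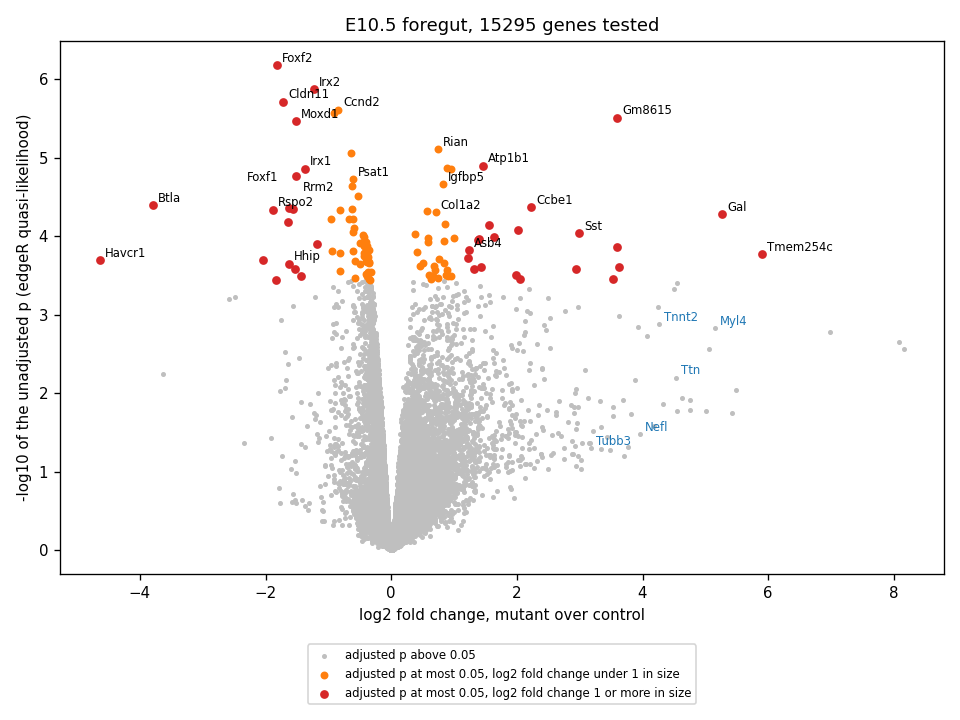
Log2 fold change of mutants over controls (horizontal) against -log10 of the unadjusted p of edgeR's quasi-likelihood test (vertical) for the 15295 genes tested, 1 point per gene. Red marks the 18 lower and 21 higher genes that changed by 1 log2 unit or more with an adjusted p up to 0.05, orange those of smaller change at that adjusted p, and blue names mark heart and neuron genes with high fold changes in 1 mutant library that did not pass.

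The calls depended on the full set of 6 libraries. Without control 1, edgeR's test called 0 genes in either direction at an adjusted p of 0.05, where the smallest adjusted p was 0.0695, although 1164 lower and 921 higher genes had an unadjusted p under 0.05. No other tool was run with a library left out. Genes that fell and rose by 1 log2 unit or more numbered 6 and 1 without control 2, 5 and 3 without control 3, 8 and 6 without mutant 1, and 11 and 10 without mutant 2. Without mutant 3, the neuron-rich library, they numbered 34 and 72, while 98 genes fell and 128 rose at the adjusted p alone. At the adjusted p alone, Foxf2, Ccnd2, Cldn11, Moxd1 and Irx2 fell and Gm8615 rose in 5 of the 6 fits, the most of any. All 110 genes called with the 6 libraries kept their direction and an unadjusted p under 0.05 in each fit. The fits share libraries, so they are not independent. With sex as a covariate the comparison rests on mutant 3 against the controls, and 18 genes fell and 292 rose. In bulk RNA, fewer cells of a type and less RNA per cell cannot be told apart.

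Mesenchymal transcription factors were among the genes that fell. Foxf2, a forkhead factor of the splanchnic mesenchyme, had 47.0, 50.2 and 55.1 CPM in controls against 14.1, 12.4 and 16.8 CPM in mutants (log2 fold change -1.81, SE 0.125, adjusted p = 0.00746), and its groups lay far apart. Foxf1, its paralog, had 156, 114 and 155 CPM in controls against 42.5, 46.7 and 59.9 CPM in mutants (log2 fold change -1.51, SE 0.162, adjusted p = 0.0186). Foxl1, another forkhead factor of the gut mesenchyme, had 13.96, 11.1 and 12.7 CPM in controls against 6.92, 5.80 and 7.76 CPM in mutants without overlap but missed the threshold (adjusted p = 0.056). Of 30 Fox genes tested, 3 fell and 0 rose in edgeR's test, against 0.405% and 0.314% of all genes. Against 438 and 359 of the 15295 genes, DESeq2 called 7 of the Fox genes lower and 1 higher. At an unadjusted p under 0.05, 10 were lower and 3 higher, against 9.56% and 9.23% of all genes, and their median log2 fold change was -0.09. The third that fell was Foxm1, a factor of the G2 phase and mitosis, with 161, 166 and 169.9 CPM in controls against 127, 137 and 126 CPM in mutants (log2 fold change -0.35, adjusted p = 0.05). Reads antisense to Foxf1 and Foxf2, from the genes Gm27530 and Gm27516, cannot be told apart in these unstranded libraries.

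The long noncoding gene 1700018A04Rik starts 24 bases upstream of Foxf2 on the opposite strand, and it fell with its neighbour, at 2.18, 2.62 and 2.25 CPM in controls against 0.597, 0.791 and 0.584 CPM in mutants (log2 fold change -1.83, SE 0.305, adjusted p = 0.05). Both starts lie within the promoter window of Foxf2, which is shown for that reason, on GRCm38.p6 from RefSeq (chr13:31625566-31625865, plus strand, 27 CG pairs). It runs 5′ to 3′ from 250 bases before the start to 50 bases after it, with CG pairs in capitals.
Foxf2: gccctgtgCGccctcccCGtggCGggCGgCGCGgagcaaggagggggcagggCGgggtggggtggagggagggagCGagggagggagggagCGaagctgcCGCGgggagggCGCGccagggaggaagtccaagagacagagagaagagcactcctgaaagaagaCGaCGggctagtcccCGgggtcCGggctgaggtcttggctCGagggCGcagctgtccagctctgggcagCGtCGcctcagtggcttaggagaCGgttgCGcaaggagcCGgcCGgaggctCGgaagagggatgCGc
Exoc2, a subunit of the exocyst that lies 591 kb from 1700018A04Rik, also fell, at 80.4, 79.3 and 83.5 CPM in controls against 52.1, 53.9 and 49.4 CPM in mutants (log2 fold change -0.65, adjusted p = 0.0148). The noncoding neighbour of Foxf1, Fendrr, had 45.8, 29.5 and 32.6 CPM in controls against 12.6, 14.04 and 19.9 CPM in mutants without overlap (log2 fold change -1.21, adjusted p = 0.0547), short of the threshold.

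The Iroquois homeobox genes Irx1 and Irx2, which lie 665 kb apart on chromosome 13, fell together. Irx1 had 81.3, 83.2 and 63.9 CPM in controls against 33.5, 24.4 and 29.9 CPM in mutants (log2 fold change -1.38, SE 0.143, adjusted p = 0.0161). Irx2 had 31.8, 32.5 and 29.6 CPM in controls against 14.1, 13.3 and 12.7 CPM in mutants (log2 fold change -1.23, SE 0.0931, adjusted p = 0.00746), and no mutant was near any control. Of the other family members, Irx3 had 2.84, 3.07 and 3.91 CPM in controls against 5.97, 3.89 and 4.20 CPM in mutants. Irx5 had 5.50, 3.98 and 6.76 CPM in controls against 10.4, 6.26 and 8.17 CPM in mutants, and neither passed the test (adjusted p = 0.313 and 0.259). Six2, a homeobox factor of embryonic mesenchyme, had 71.6, 89.1 and 87.4 CPM in controls against 51.6, 40.9 and 37.1 CPM in mutants (log2 fold change -0.94, adjusted p = 0.0405). Twist2, a basic helix-loop-helix factor of mesenchyme, had 12.99, 13.3 and 17.7 CPM in controls against 7.998, 7.84 and 7.29 CPM in mutants with an adjusted p of 0.0512. The Polycomb gene Bmi1 fell from 56.3, 63.6 and 69.3 CPM in the controls to 36.9, 38.3 and 32.6 CPM in the mutants (log2 fold change -0.81, adjusted p = 0.0278).

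Of the 7 HH target genes listed, all 7 were tested and 4 fell, against 0.405% of all genes. The list had a median log2 fold change of -0.88 where all genes had 0.03. The list holds genes that the study names for these samples and Gli-controlled genes known from other tissues, so its direction is not independent. Hhip, which binds HH ligands at the cell surface, had 44.0, 30.8 and 48.0 CPM in controls against 8.65, 14.7 and 16.3 CPM in mutants, and mutant 1 was the lowest. Ptch1, the receptor that HH signalling induces, had 659.8, 759 and 709.9 CPM in controls against 453, 482 and 401 CPM in mutants and fell by 0.67 on the log2 scale, less than Hhip. Gli1, the activator that is itself a target, had 49.5, 50.1 and 43.2 CPM in controls against 37.4, 35.1 and 33.6 CPM in mutants without overlap (adjusted p = 0.0624). Shh, the ligand made by the epithelium, had 28.2, 27.1 and 25.7 CPM in controls against 57.2, 38.4 and 43.0 CPM in mutants (adjusted p = 0.056). The coreceptor Cdon had 30.5, 32.2 and 39.2 CPM in controls against 54.4, 62.9 and 49.0 CPM in mutants (adjusted p = 0.0547). Both lay higher in all mutants and fell short of the test, while the coreceptor Gas1 rose. Gas1 had 45.6, 44.2 and 60.2 CPM in controls against 96.6, 80.3 and 92.6 CPM in mutants (log2 fold change 0.85, adjusted p = 0.0419). Genes antisense to Hhip and Gas1 could add reads to them.

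Rspo2, which strengthens Wnt signalling by holding its receptors at the membrane, had 26.9, 16.5 and 25.6 CPM in controls against 6.51, 4.81 and 7.29 CPM in mutants (log2 fold change -1.89, SE 0.232, adjusted p = 0.0278). Moxd1, a relative of dopamine beta-hydroxylase, had 65.8, 78.4 and 69.2 CPM in controls against 24.4, 20.7 and 29.1 CPM in mutants. Cldn11, a claudin of tight junctions, had 19.2, 17.6 and 17.2 CPM in controls against 4.95, 5.34 and 6.13 CPM in mutants. In both, the highest mutant was mutant 3 and the groups lay far apart. Pgf, the placental growth factor of the VEGF family, had 12.9, 11.9 and 13.8 CPM in controls against 3.34, 3.76 and 5.31 CPM in mutants (log2 fold change -1.63, SE 0.2, adjusted p = 0.0278). Esm1, a proteoglycan secreted by endothelial cells, had 5.56, 3.53 and 3.32 CPM in controls against 0.836, 1.05 and 1.11 CPM in mutants (log2 fold change -2.04, adjusted p = 0.0419). Angptl1, an angiopoietin-like secreted protein, had 10.8, 12.6 and 10.7 CPM in controls against 4.30, 4.94 and 5.78 CPM in mutants (log2 fold change -1.18, adjusted p = 0.0376). The endothelial markers went the other way, with 20 of 21 tested above 0 and a median log2 fold change of 0.29. That median was 0.18 without mutant 2 and 0.097 with sex as a covariate. Plaur, the receptor of urokinase, had 8.46, 7.63 and 11.47 CPM in controls against 2.92, 4.22 and 3.03 CPM in mutants (log2 fold change -1.44, adjusted p = 0.0485).

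The 2 largest falls on the log2 scale were of genes with few counts. Havcr1, a phosphatidylserine receptor, had 29, 18 and 43 counts in controls against 0, 1 and 2 counts in mutants. The ratio of controls to mutants was 27.9 with an exact 95% interval of 9.24 to 138 that covers counting error only (adjusted p = 0.0419). Btla, an inhibitory receptor known from lymphocytes, had 32, 35 and 42 counts in controls against 2, 1 and 4 in mutants, a ratio of 14.5 with an interval of 6.79 to 36.9. Fam162b had 3.87, 3.24 and 3.59 CPM in controls against 1.19, 1.32 and 1.17 CPM in mutants (log2 fold change -1.54, adjusted p = 0.0455). 3425401B19Rik had 8.40, 6.54 and 9.97 CPM in controls against 2.75, 2.44 and 2.74 CPM in mutants (log2 fold change -1.65, adjusted p = 0.0315). The X-linked predicted gene Gm5127 had 5.86, 5.98 and 5.79 CPM in controls against 2.09, 1.85 and 1.98 CPM in mutants (log2 fold change -1.57, adjusted p = 0.0278), and its value in mutant 3, whose Xist was low, lay between those of mutants 1 and 2.

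**Figure D3:**
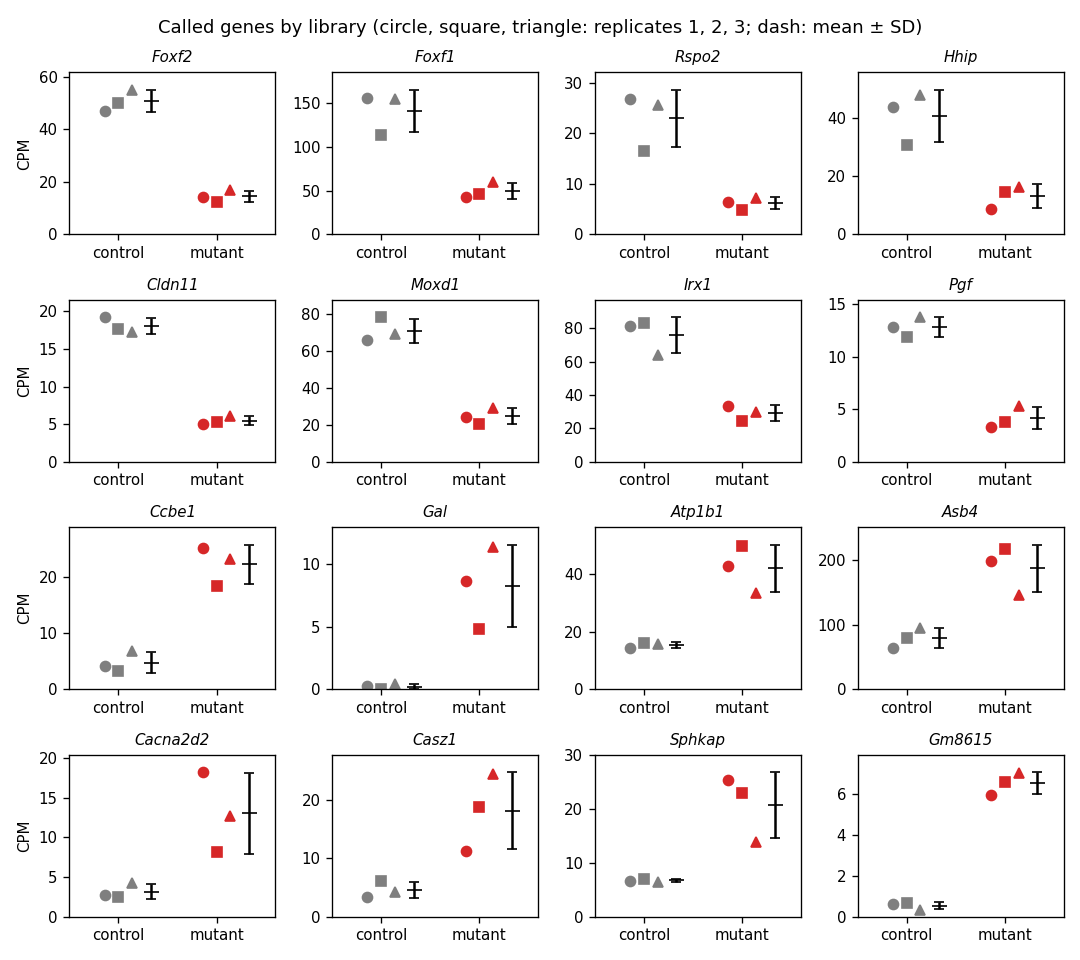
CPM of 16 called genes in each library, with 1 panel per gene, controls in grey and mutants in red, and circle, square and triangle for replicates 1, 2 and 3 (vertical axes start at 0 and differ between panels). The dash and bar give the mean and SD of 3 libraries. In every panel the mutants lie on 1 side of the controls, and their values spread from 8.11 to 18.3 CPM in Cacna2d2 and from 11.2 to 24.3 CPM in Casz1.

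Ccnd2, a D-type cyclin that drives entry into the cell cycle, had 921, 1004 and 929 CPM in controls against 557, 538 and 492 CPM in mutants (log2 fold change -0.85, SE 0.0695, adjusted p = 0.00746), the lowest control standing far above the highest mutant. Ccnd1, its paralog, had 334, 302 and 335 CPM in controls against 233, 250.5 and 239 CPM in mutants (log2 fold change -0.43, adjusted p = 0.0416). Reads of Ccnd2 and of genes antisense to it were not separated. The inhibitor Cdkn1c, which restrains cyclin-dependent kinases, moved up at the same time, at 199.99, 180.3 and 219 CPM in controls against 306, 307 and 283 CPM in mutants (log2 fold change 0.58, adjusted p = 0.0364). Cdkn1a, another such inhibitor, had 16.5, 20.9 and 16.3 CPM in controls against 21.9, 17.7 and 29.4 CPM in mutants with an adjusted p of 0.359.

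All 18 genes of the DNA replication list lay below 0 (median log2 fold change -0.24) and 2 of them fell at an adjusted p up to 0.05, against 0.405% of all genes. Rrm2, a subunit of ribonucleotide reductase, had 249, 244 and 263 CPM in controls against 172, 169.9 and 151 CPM in mutants (log2 fold change -0.62, adjusted p = 0.0207). Uhrf1, which directs maintenance DNA methylation, had 245, 232 and 235 CPM in controls against 196, 184 and 183 CPM in mutants (log2 fold change -0.34, adjusted p = 0.05). In 15 of the 18 the groups did not overlap, against 13.3% of all genes in this direction, Cdc45 and Mcm7 of the replicative helicase among them. Cdc45 had 38.4, 36.3 and 35.8 CPM in controls against 28.8, 29.5 and 26.6 CPM in mutants. Mcm7 had 163, 172 and 175 CPM in controls against 144, 144 and 128 CPM in mutants, and both missed the threshold (adjusted p = 0.0657 and 0.0795). All 18 mitosis genes were also below 0 (median -0.26), 13 without overlap, but 0 passed the adjusted p in edgeR's test. There 14 were lower at an unadjusted p under 0.05, against 9.56% of all genes. DESeq2 called 11 lower, against 438 of the 15295 genes. Nearest to the threshold was Ube2c, which works with the anaphase-promoting complex, at 439, 440.1 and 399.6 CPM in controls against 328, 348 and 326 CPM in mutants (adjusted p = 0.0547). The kinase Aurkb had 104, 109.7 and 93.9 CPM in controls against 79.3, 81.1 and 77.7 CPM in mutants (adjusted p = 0.056). Mki67, by contrast, overlapped, at 991, 1035 and 978 CPM in controls against 806, 1035 and 794 CPM in mutants. Outside the lists, the mitotic genes Cdca8 and Melk and the repair nuclease Exo1 fell by 0.38, 0.49 and 0.41 on the log2 scale.

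Histone genes fell further. Of 64 tested, 62 lay below 0, and the median log2 fold change was -0.41. At the adjusted p 6 fell, against 0.405% of all genes. At an unadjusted p under 0.05, 38 were lower, against 9.56% of all genes. DESeq2 called 26 lower, against 438 of the 15295 genes. Hist2h3b had 98.8, 94.4 and 103 CPM in controls against 63.0, 70.1 and 59.5 CPM in mutants (log2 fold change -0.62, adjusted p = 0.0278). Hist1h2bm had 270.3, 259 and 243 CPM in controls against 193, 193 and 185 CPM in mutants (log2 fold change -0.44, adjusted p = 0.0364). The linker histone Hist1h1b had 143, 137 and 112 CPM in controls against 85.0, 90.4 and 88.5 CPM in mutants (log2 fold change -0.57, adjusted p = 0.0499). The share of all counts in histone genes was 0.441, 0.43 and 0.39% in controls against 0.301, 0.317 and 0.322% in mutants, so all mutants lay below all controls (exact permutation test, p = 0.1). Many histone genes are near-identical copies of each other, and reads may have been divided among them, so values of single copies are uncertain.

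Taking each gene relative to its control mean on the log2(CPM + 1) scale, the median deviation of the replication genes was -0.01, -0.01 and 0.02 in controls against -0.19, -0.24 and -0.34 in mutants. For mitosis genes it was -0.01, 0.00 and 0.00 in controls against -0.28, -0.20 and -0.33 in mutants. Histone genes gave 0.08, 0.04 and -0.10 in controls against -0.41, -0.35 and -0.37 in mutants. The 3 mutants lay below the 3 controls in each list, with mutant 3 the lowest for replication and mitosis and mutant 1 for histones. On the same scale the cardiomyocyte list was at -0.01, 0.21 and -0.08 in controls against 0.84, 4.04 and 0.54 in mutants and the neural crest and neuron list at 0.05, -0.30 and 0.21 in controls against -0.79, -0.04 and 2.29 in mutants, and their part in the fall was not tested.

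**Figure D4:**
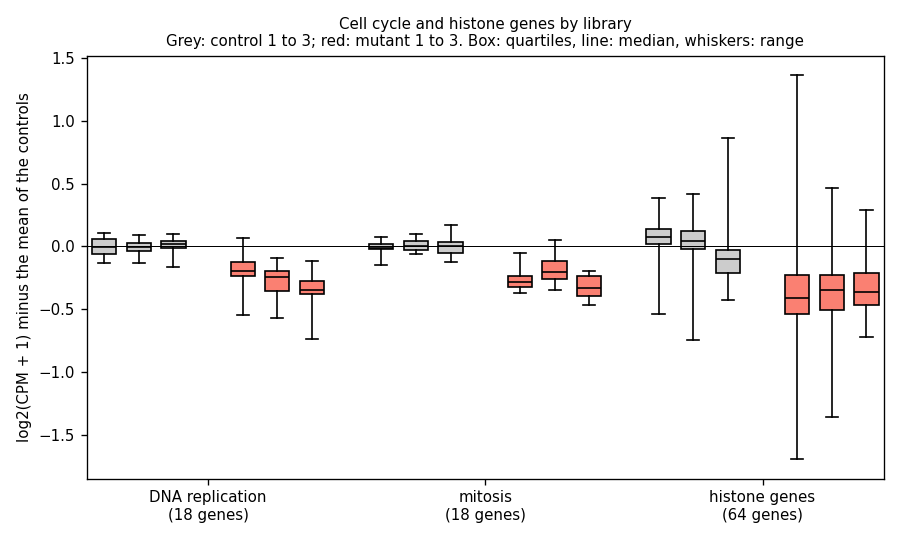
Deviation of each gene from its mean in the controls on the log2(CPM + 1) scale (vertical), by library, for 18 DNA replication, 18 mitosis and 64 histone genes. Boxes give the quartiles, lines the median and whiskers the full range, in grey for controls 1 to 3 and red for mutants 1 to 3, from left to right. The mutant medians lie between -0.41 and -0.19 and the control medians between -0.10 and 0.08.

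Psat1, an enzyme of serine synthesis, had 147, 151 and 162 CPM in controls against 103, 94.0 and 104 CPM in mutants (log2 fold change -0.61, adjusted p = 0.019). Ctps, which makes CTP, had 67.4, 64.5 and 63.7 CPM in controls against 49.5, 50.2 and 49.1 CPM in mutants (log2 fold change -0.39, adjusted p = 0.0419). The nucleolar proteins Nolc1, Heatr1 and Mybbp1a fell by 0.37, 0.36 and 0.36 on the log2 scale, with adjusted p of 0.0419, 0.0419 and 0.0405. The methyltransferase Prmt5 and the nuclear transport genes Ipo5 and Ranbp1 fell by 0.33, 0.40 and 0.36. Hspd1, the mitochondrial chaperonin, had 954, 922 and 859 CPM in controls against 708, 693 and 679 CPM in mutants (log2 fold change -0.40, adjusted p = 0.0419), and it shares its locus with the antisense gene Hspe1. In the list of unfolded protein and amino acid response genes, 13 of 17 lay below 0 and 1 fell, Psat1, against 0.405% of all genes. Atf4, the transcription factor of this response, had 111, 107 and 92.9 CPM in controls against 74.8, 78.0 and 80.5 CPM in mutants (adjusted p = 0.056). Shmt2, a mitochondrial enzyme of serine use, had 124, 111 and 111 CPM in controls against 82.8, 90.8 and 91.4 CPM in mutants (adjusted p = 0.0547).

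Housekeeping families moved little. The median log2 fold change was -0.07 over 77 ribosomal protein genes, of which 64 lay below 0, and -0.07 over 70 genes of oxidative phosphorylation, of which 55 did. In edgeR's test 0 of either family passed in either direction. At an unadjusted p under 0.05, 8 and 6 were lower and 0 higher, against 9.56% and 9.23% of all genes. DESeq2 called 0, against 438 genes lower and 359 higher of the 15295. All 18 cholesterol synthesis genes lay below 0 (median -0.13), though 0 passed edgeR's test. At an unadjusted p under 0.05, 3 were lower, against 9.56% of all genes. DESeq2 called 1 lower, against 438 of the 15295 genes. The list's median deviations by library were 0.00, 0.05 and -0.03 in controls against -0.32, -0.07 and 0.06 in mutants, so mutant 3 did not share the direction. Glycolysis and hypoxia genes went the other way, with 18 of 23 above 0 (median 0.14). Pdk1, which turns off pyruvate dehydrogenase, rose, at 36.3, 34.5 and 29.8 CPM in controls against 58.7, 47.4 and 57.4 CPM in mutants (log2 fold change 0.70, adjusted p = 0.0456). Bnip3, a gene induced by hypoxia, had 31.1, 27.0 and 29.3 CPM in controls against 48.6, 37.4 and 50.8 CPM in mutants (adjusted p = 0.0574). The glucose carrier Slc2a3 had 64.5, 84.1 and 58.7 CPM in controls against 120.02, 112 and 96.3 CPM in mutants (adjusted p = 0.0707), and neither overlapped between groups.

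**Figure D5:**
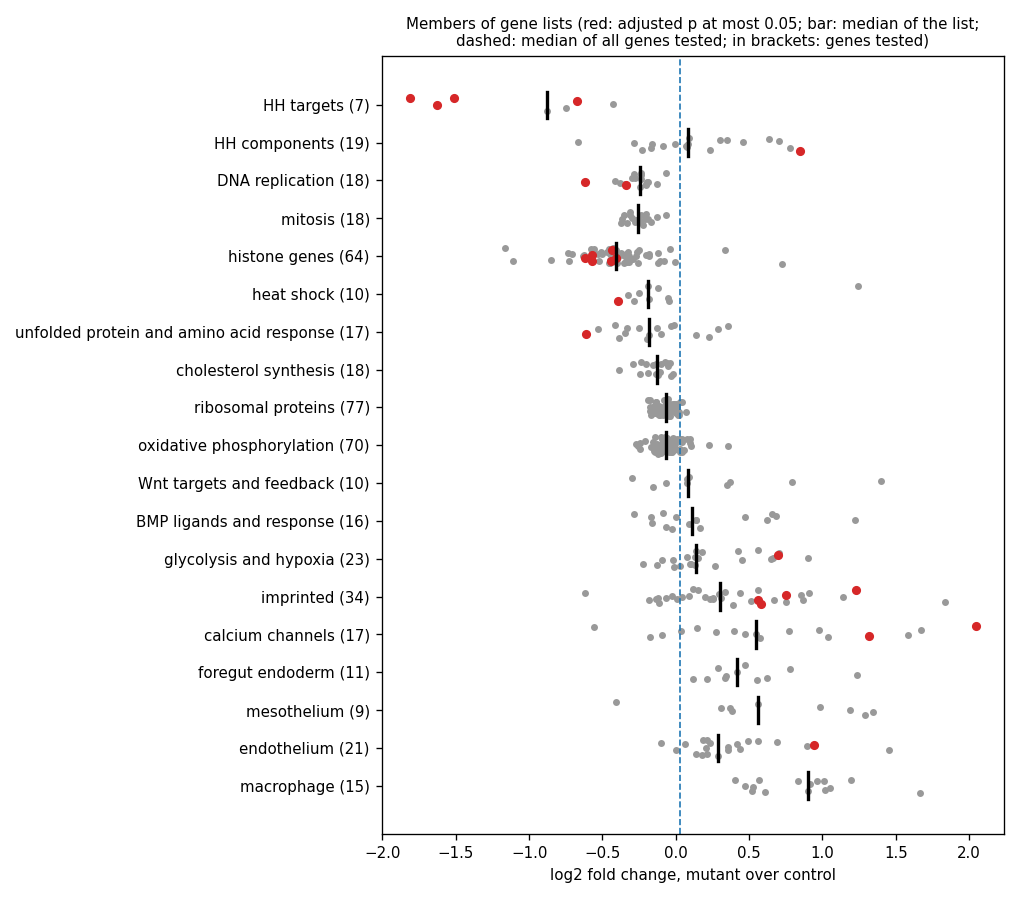
Log2 fold change (horizontal) of the tested members of 19 gene lists, 1 point per gene, with red for an adjusted p of at most 0.05, a bar at the median of the list and a dashed line at 0.03, the median of all genes. HH target, replication, mitosis, histone and cholesterol synthesis members lie below 0 with few or no exceptions, while all 15 macrophage and all 11 foregut endoderm members lie above it. The points are jittered vertically within a list.

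Igfbp5, a binding protein of insulin-like growth factors, had 705, 880.4 and 849 CPM in controls against 1495, 1369 and 1443 CPM in mutants (log2 fold change 0.82, SE 0.0912, adjusted p = 0.0207). Igf1, one of the factors it binds, had 38.6, 47.6 and 42.9 CPM in controls against 77.9, 79.5 and 62.5 CPM in mutants (log2 fold change 0.77, adjusted p = 0.0419). Each mutant stood above each control in both. Igf2 overlapped, at 2992, 3039 and 2471 CPM in controls against 3037, 4134 and 2988 CPM in mutants. Pdgfc, a mitogen of mesenchyme, fell, at 129, 124 and 132 CPM in controls against 94.4, 87.1 and 86.6 CPM in mutants (log2 fold change -0.52, adjusted p = 0.0258).

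Of 34 imprinted genes tested, 27 lay above 0, the median log2 fold change was 0.30, and 4 rose, against 0.314% of all genes. Rian, a maternally expressed noncoding RNA of the Dlk1-Dio3 cluster, had 88.0, 97.1 and 91.1 CPM in controls against 154, 166 and 144 CPM in mutants (log2 fold change 0.75, SE 0.0721, adjusted p = 0.0148). Its cluster neighbour Meg3 had 45.8, 55.6 and 43.3 CPM in controls against 97.2, 97.7 and 66.4 CPM in mutants (adjusted p = 0.0568). Dlk1, the paternally expressed gene of the cluster, had 14.1, 30.2 and 27.2 CPM in controls against 46.6, 53.7 and 30.4 CPM in mutants (adjusted p = 0.184). Neither passed, although all mutants lay above all controls in both. Asb4, an ankyrin repeat protein with a SOCS box, had 63.8, 80.0 and 95.0 CPM in controls against 199, 217 and 146 CPM in mutants (log2 fold change 1.23, adjusted p = 0.0405). Ppp1r9a, a neighbour 218 kb away, had 59.7, 63.2 and 66.0 CPM in controls against 99.2, 89.6 and 90.2 CPM in mutants (log2 fold change 0.56, adjusted p = 0.0278). Cdkn1c was the fourth. Plagl1, by contrast, had 311, 296 and 259 CPM in controls against 154, 278 and 133 CPM in mutants. By library the list's median deviation was -0.02, 0.01 and 0.05 in controls against 0.23, 0.46 and 0.11 in mutants, highest in mutant 2, and without mutant 2 the list's median log2 fold change was 0.23. With sex as a covariate it was 0.11.

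Atp1b1, the beta subunit of the sodium pump, had 14.1, 16.0 and 15.7 CPM in controls against 42.8, 49.8 and 33.3 CPM in mutants (log2 fold change 1.46, SE 0.15, adjusted p = 0.0161). Cacna1d, a pore subunit of L-type calcium channels, had 4.71, 3.13 and 4.66 CPM in controls against 10.4, 11.7 and 9.05 CPM in mutants (log2 fold change 1.32, adjusted p = 0.0455). Cacna2d2, an auxiliary subunit, had 2.66, 2.50 and 4.29 CPM in controls against 18.3, 8.11 and 12.7 CPM in mutants (log2 fold change 2.04, adjusted p = 0.05). These were the 2 of 17 calcium channel genes that rose, against 0.314% of all genes, in a family chosen with earlier results of these data known. In the family 14 of the 17 lay above 0, and the median was 0.54. Of 53 potassium channel genes, 42 lay above 0, with a median of 0.41 that was 0.24 without mutant 3. In edgeR's test 0 passed in either direction. At an unadjusted p under 0.05, 7 were higher and 1 lower, against 9.23% and 9.56% of all genes. By DESeq2 0 were higher and 1 lower, against 359 and 438 of the 15295 genes. Npr1, the receptor of atrial natriuretic peptide, had 3.02, 3.36 and 3.54 CPM in controls against 8.59, 10.0 and 7.18 CPM in mutants (log2 fold change 1.38, adjusted p = 0.0365). Erbb4, a receptor of neuregulins, had 2.78, 3.02 and 2.95 CPM in controls against 7.94, 9.76 and 5.95 CPM in mutants (log2 fold change 1.43, adjusted p = 0.0446).

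Fhod3, a formin of the sarcomere, had 4.41, 4.21 and 4.02 CPM in controls against 9.49, 11.7 and 8.17 CPM in mutants (log2 fold change 1.22, adjusted p = 0.0419). Unc45b, a chaperone of muscle myosin, had 0.846, 0.967 and 0.59 CPM in controls against 6.86, 17.3 and 3.85 CPM in mutants (log2 fold change 3.53, adjusted p = 0.05). Sphkap, an anchoring protein of protein kinase A, had 6.65, 6.94 and 6.49 CPM in controls against 25.4, 22.9 and 13.8 CPM in mutants (log2 fold change 1.63, adjusted p = 0.0364). Slc24a2, a calcium exchanger, had 0.604, 0.512 and 0.268 CPM in controls against 4.89, 9.10 and 2.92 CPM in mutants (log2 fold change 3.60, adjusted p = 0.0388). Mutant 2, with its heart muscle RNA, was the highest library for Atp1b1, Cacna1d, Npr1, Erbb4, Fhod3, Unc45b, Slc24a2 and Asb4, but not for Cacna2d2 or Sphkap. In these 10 each mutant lay above each control, as in all 21 genes called higher, so this does not set them apart. Without mutant 2 the log2 fold changes of Unc45b and Slc24a2 were 2.73 and 3.07, those of Atp1b1 and Fhod3 1.31 and 1.06, and those of Npr1 and Erbb4 1.25 and 1.25. The cardiomyocyte list had 22 of 23 tested members above 0 and a median log2 fold change of 3.13, which was 1.09 without mutant 2. It held 33 genes. Myl3, at 0.302, 0.228 and 0.322 CPM in controls against 1.07, 37.0 and 1.17 CPM in mutants, was tested mainly through the mutants. The number above 0 is thus partly set by which genes had enough counts. In the list 0 members passed edgeR's adjusted p, and DESeq2 called 9 higher, against 359 of the 15295 genes. At an unadjusted p under 0.05, 19 were higher, against 9.23% of all genes. Of its defining markers, Tnnt2 had 4.41, 3.13 and 2.73 CPM in controls against 30.6, 151 and 15.1 CPM in mutants, so mutants 1 and 3 also lay above the controls. Actc1 had 46.8, 41.0 and 48.6 CPM in controls against 112, 870.5 and 42.8 CPM in mutants, where mutant 3 did not. The part of heart cells in these rises was not tested. Genes antisense to Atp1b1, Cacna1d, Cacna2d2, Npr1, Fhod3, Unc45b and Casz1 overlap their exons, and reads of the pairs were not separated.

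Casz1, a zinc finger transcription factor, had 3.38, 6.09 and 4.18 CPM in controls against 11.2, 18.8 and 24.3 CPM in mutants (log2 fold change 1.99, adjusted p = 0.0485), with its highest value in mutant 3. Gata4, a factor of heart and gut mesenchyme, had 9.49, 5.98 and 9.76 CPM in controls against 30.3, 54.6 and 19.8 CPM in mutants, without overlap and short of the test (adjusted p = 0.0547). Ccbe1, a secreted protein needed for lymphatic vessels, had 4.17, 3.24 and 6.81 CPM in controls against 25.2, 18.4 and 23.2 CPM in mutants (log2 fold change 2.23, SE 0.271, adjusted p = 0.0278), its lowest mutant being mutant 2.

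Genes near the floor of detection in controls gave the largest rises. Gal, the neuropeptide galanin, had 4, 0 and 7 counts in controls against 145, 73 and 195 in mutants, a ratio of 40.4 with an exact 95% interval of 22.3 to 81.5. Sst, the peptide hormone somatostatin, had 0.363, 0.626 and 0.322 CPM in controls against 3.82, 2.31 and 4.38 CPM in mutants (log2 fold change 2.99, adjusted p = 0.0364). They were the 2 of 8 tested peptide genes that rose, against 0.314% of all genes, and 4 of the 8 lay below 0. The list held 22 genes. With few counts in controls, Gal and Sst could be tested mainly through the mutants, so this share is not evidence about the family. Both were higher in mutants 1 and 3 than in mutant 2, and the part of the neuronal RNA of mutant 3 was not tested. Cntn4, an adhesion molecule of neurons, had 0.0604, 0.171 and 0.0536 CPM in controls against 1.49, 0.857 and 1.40 CPM in mutants (log2 fold change 3.63, adjusted p = 0.0447). Oit3 had 0.242, 0.398 and 0.429 CPM in controls against 4.36, 1.85 and 2.22 CPM in mutants (log2 fold change 2.95, adjusted p = 0.0455). Nexmif, an X-linked gene known from neurons, had 2.12, 2.33 and 2.04 CPM in controls against 5.49, 5.60 and 6.01 CPM in mutants (log2 fold change 1.40, adjusted p = 0.0364), with mutant 3 the highest. The predicted gene Gm8615 had 0.604, 0.683 and 0.322 CPM in controls against 5.97, 6.59 and 7.06 CPM in mutants (log2 fold change 3.60, SE 0.305, adjusted p = 0.00746), with a narrow spread in each group.

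Tmem254c is one of 3 near-identical neighbouring copies, and reads may have been divided among them. It had 0.484, 0 and 0 CPM in controls against 5.13, 13.7 and 9.98 CPM in mutants (log2 fold change 5.90, adjusted p = 0.0413), so the call for this copy is uncertain. Tmem254b had 45.3, 56.9 and 51.8 CPM in controls against 57.6, 53.4 and 61.2 CPM in mutants. Tmem254a had 6.59, 6.66 and 6.59 CPM in controls against 7.998, 6.79 and 8.58 CPM in mutants, and neither passed the test. Among genes without an annotated name, BC039192 had 299.95, 382 and 370.2 CPM in controls against 715, 646 and 663 CPM in mutants (log2 fold change 0.94, adjusted p = 0.0161). AK083547 had 2.72, 2.96 and 3.38 CPM in controls against 7.64, 10.9 and 8.29 CPM in mutants (log2 fold change 1.56, adjusted p = 0.0326), and both had all mutants above all controls.

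Flrt2, a membrane protein that guides migrating cells, had 102, 104 and 143 CPM in controls against 258, 217 and 222 CPM in mutants (log2 fold change 0.996, adjusted p = 0.0364). Its relative Flrt3 had 70.4, 75.1 and 84.0 CPM in controls against 131, 109 and 108 CPM in mutants (log2 fold change 0.60, adjusted p = 0.0485). Sema3a, a secreted repulsive cue, had 31.8, 34.3 and 38.3 CPM in controls against 76.0, 65.5 and 52.0 CPM in mutants (log2 fold change 0.89, adjusted p = 0.0456). The Eph receptor Epha4 moved the other way, at 151, 138 and 141 CPM in controls against 97.0, 84.1 and 100.02 CPM in mutants (log2 fold change -0.62, adjusted p = 0.0297). Col1a2, a chain of type I collagen, had 117, 115 and 132 CPM in controls against 182, 219 and 194 CPM in mutants (log2 fold change 0.71, SE 0.0881, adjusted p = 0.0279). Its partner chain Col1a1 had 141, 125 and 137 CPM in controls against 109, 171 and 140.0 CPM in mutants and did not pass (adjusted p = 0.869). Of 34 collagen genes, 21 lay above 0, with a median of 0.14. Sox6, a partner of Sox9 in cartilage, had 19.9, 24.8 and 26.2 CPM in controls against 40.3, 45.7 and 40.4 CPM in mutants (log2 fold change 0.84, adjusted p = 0.0367). The defining cartilage markers overlapped between groups. Sox9 had 71.0, 83.6 and 78.3 CPM in controls against 45.3, 87.9 and 46.3 CPM in mutants. Col2a1 had 166, 236 and 227 CPM in controls against 196, 249.7 and 164 CPM in mutants.

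Tek, the angiopoietin receptor, had 16.8, 17.8 and 20.1 CPM in controls against 37.2, 40.6 and 27.4 CPM in mutants (log2 fold change 0.94, adjusted p = 0.0485). Kdr, the main VEGF receptor, had 34.6, 34.4 and 43.2 CPM in controls against 69.8, 83.1 and 56.0 CPM in mutants without overlap (adjusted p = 0.0514). Aplnr, the apelin receptor, had 61.1, 46.8 and 54.5 CPM in controls against 97.1, 77.6 and 96.8 CPM in mutants (log2 fold change 0.74, adjusted p = 0.05). Of 21 endothelial genes, 9 had all mutants above all controls (11.7% of all genes did) and 1 rose, Tek, against 0.314% of all genes. Of the defining markers, Pecam1 had 30.8, 30.9 and 36.4 CPM in controls against 38.1, 49.5 and 38.3 CPM in mutants without overlap. Cdh5 had 118, 127 and 136 CPM in controls against 138, 182 and 112 CPM in mutants, where mutant 3 was the lowest library.

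Markers of some other cell types lay above 0 as lists without passing the test. All 15 macrophage genes lay above 0 (median 0.90), 10 without overlap against 11.7% of all genes, but 0 passed edgeR's adjusted p. At an unadjusted p under 0.05, 10 were higher, against 9.23% of all genes. DESeq2 called 0, against 359 of the 15295 genes higher. The macrophage share of counts was 0.00413, 0.00439 and 0.00359% in controls against 0.00563, 0.00718 and 0.00732% in mutants (exact permutation test, p = 0.1). Csf1r, the defining receptor, had 4.29, 4.38 and 4.29 CPM in controls against 5.85, 6.86 and 7.06 CPM in mutants, and C1qa was below 1 CPM in every library. In the foregut endoderm list all 11 lay above 0 (median 0.42) and 0 passed edgeR's test. At an unadjusted p under 0.05, 5 were higher, against 9.23% of all genes. DESeq2 called 3 higher, against 359 of the 15295 genes. The list's share of counts was 0.0175, 0.0203 and 0.0179% in controls against 0.0299, 0.0228 and 0.0247% in mutants. Its defining markers Sox2, Nkx2-1 and Foxa2 overlapped between groups. Sox2 had 8.22, 12.9 and 10.99 CPM in controls against 15.2, 11.9 and 13.7 CPM in mutants. Nkx2-1 had 20.7, 12.1 and 13.8 CPM in controls against 23.1, 11.2 and 16.2 CPM in mutants. Foxa2 had 16.3, 16.0 and 13.8 CPM in controls against 24.9, 12.7 and 20.2 CPM in mutants, mutant 2 being the lowest library. Of 18 epithelial genes, 17 lay above 0 with a median of 0.34. Of 9 mesothelial genes, 8 lay above 0 (median 0.56), with 0 passing edgeR's test. At an unadjusted p under 0.05, 6 were higher, against 9.23% of all genes. DESeq2 called 3 higher, against 359 of the 15295 genes. Upk3b, a defining marker, had 17.3, 14.1 and 20.7 CPM in controls against 41.4, 28.8 and 33.03 CPM in mutants (adjusted p = 0.0547). Wt1 had 5.38, 4.496 and 8.63 CPM in controls against 17.9, 10.8 and 16.6 CPM in mutants (adjusted p = 0.0774), and Msln was below 1 CPM in every library.

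The splanchnic mesenchyme list, which marks the tissue that receives HH signals, was split. Foxf1 and Foxf2 fell, 12 of 22 members lay above 0, and the median was 0.17. It was 0.02 without mutant 2 and -0.29 with sex as a covariate. Its share of counts was 0.135, 0.109 and 0.141% in controls against 0.123, 0.133 and 0.112% in mutants (exact permutation test, p = 0.7). Of its other defining markers, Tbx4 had 18.9, 6.60 and 12.8 CPM in controls against 8.89, 6.06 and 9.05 CPM in mutants. Barx1 had 2.12, 3.07 and 2.63 CPM in controls against 1.49, 7.05 and 0.817 CPM in mutants, and both overlapped. Smooth muscle genes had a median log2 fold change of 0.31, which turned to -0.39 without mutant 2, and Acta2, smooth muscle actin, had 47.0, 47.6 and 54.7 CPM in controls against 34.6, 323 and 10.9 CPM in mutants, with mutant 2 the highest of all libraries and mutant 3 the lowest. Erythroid genes had 0.20, and -0.30 without control 3, and neural crest and neuron genes 1.20, and -0.60 without mutant 3.

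Of 12 Wnt ligands and R-spondins tested, 8 lay below 0 and 1 fell, Rspo2, against 0.405% of all genes. DESeq2 called 3 of the 12 lower, against 438 of the 15295 genes. The list's median log2 fold change was -0.29, which was -0.07 without control 3 and -0.01 with sex as a covariate. Its share of counts was 0.0395, 0.032 and 0.0412% in controls against 0.0234, 0.0248 and 0.0251% in mutants, with all mutants below all controls (exact permutation test, p = 0.1). Wnt4 had 46.2, 28.5 and 40.9 CPM in controls against 8.30, 12.1 and 18.6 CPM in mutants (adjusted p = 0.056). Wnt5a had 215, 213 and 206 CPM in controls against 136, 157 and 114 CPM in mutants (adjusted p = 0.0501), and neither overlapped between groups. Among 10 Wnt targets and feedback genes 0 passed edgeR's test, and the median was 0.08. At an unadjusted p under 0.05, 2 were higher, against 9.23% of all genes. DESeq2 called 1 higher, against 359 of the 15295 genes. Medians were 0.11 for 16 BMP genes, 0.25 for 17 genes of FGF signalling, 0.16 for 12 of TGF-beta and -0.08 for 17 of Notch. Without mutant 2 the BMP median turned to -0.05, and those of FGF and TGF-beta were 0.12 and 0.05. Without control 3 the Notch median turned to 0.08. In these 4 lists 0 passed in edgeR's test. At an unadjusted p under 0.05, 0, 1, 0 and 3 were lower and 3, 4, 2 and 1 higher, against 9.56% and 9.23% of all genes. By DESeq2 0 were lower and 2, 2, 1 and 0 higher, against 438 and 359 of the 15295 genes. The BMP regulator Bmper had 3.69, 3.30 and 5.68 CPM in controls against 9.91, 9.95 and 9.80 CPM in mutants, short of the test (adjusted p = 0.056). The 15 anterior Hox genes had a median of 0.05 with 0 passing in edgeR's test. At an unadjusted p under 0.05, 3 were higher, against 9.23% of all genes. DESeq2 called 1 higher, against 359 of the 15295 genes. Only 1 of 24 posterior Hox genes had enough counts to be tested.

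Along the genome the calls were uneven. The 19 autosomes had median log2 fold changes between -0.01 and 0.05, so none was shifted as a whole. Chromosome 13 held 13 of the 62 genes that fell (21.0%) and 563 of the 13946 tested genes with a position (4.04%), or 2.31% of its tested genes against 0.366% elsewhere, and the next chromosome held 5. They were Foxf2, 1700018A04Rik and Exoc2 in 1 neighbourhood, Irx1 and Irx2 in another, Hist1h1b, Hist1h2be, Hist1h2bm and Hist1h3e of the histone cluster, and Ptch1, Esm1, Heatr1 and Adarb2 elsewhere. Neighbouring genes share a chromosome, so these 13 are not independent of each other. Gli3 lies on the same chromosome. Of the 110 genes that fell or rose, 4 lay on the X chromosome, which held 505 of the 13946 tested genes with a position. There Nhs, Alg13 and Gm5127 fell and Nexmif rose. Nhs had 38.6, 39.04 and 38.3 CPM in controls against 20.2, 21.8 and 20.1 CPM in mutants (log2 fold change -0.90, adjusted p = 0.00746), mutant 3 being the lowest.

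Gene length showed little relation to the change, since in 5 equal groups of genes by effective length the median log2 fold change lay between -0.02 and 0.01. Promoters differed more. RefSeq gives a window from 250 bases before to 50 bases after the start for 10925 of the tested genes, with a median of 21 CG pairs (quartiles 12 and 29). The 15 genes with a window among the 18 that fell by 1 log2 unit or more had a median of 7, and the 15 among the 21 that rose so had 8. Foxf1, Irx1 and Rspo2 were the falling genes of that size without a window. Both sets were picked by the size of the change, and a link of CG pairs to expression level was not tested. Of all tested genes with a window, 69.4% held at least 15 CG pairs, against 33.3% and 40% of these 2 sets. The wider set of falling genes, with its cell cycle members, had a median of 20, and that of rising genes 13.5. The words TGGGTGGTC, the core of the Gli binding site, and TGTTTAC, a forkhead site, were searched on both strands and occur in 0.256% and 3.10% of the windows of tested genes. Neither was in the 15 windows of genes that fell or the 15 of genes that rose by 1 log2 unit or more. At these shares, 15 windows could easily hold neither word, so nothing is concluded from their absence. Foxf1, Irx1 and Rspo2, without a window, were not searched.

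Windows of 2 other genes that fell and 3 that rose show this range beside that of Foxf2 (GRCm38.p6 from RefSeq, 5′ to 3′ along the gene, CG pairs in capitals). The window of Irx2 is chr13:72628570-72628869, plus strand, 25 CG pairs, and that of Btla is chr16:45224087-45224386, plus strand, 5 CG pairs. Atp1b1 has chr1:164458306-164458605, minus strand, 31 CG pairs, Gal has chr19:3414495-3414794, minus strand, 16 CG pairs, and Sphkap has chr1:83408151-83408450, minus strand, 7 CG pairs.
Irx2: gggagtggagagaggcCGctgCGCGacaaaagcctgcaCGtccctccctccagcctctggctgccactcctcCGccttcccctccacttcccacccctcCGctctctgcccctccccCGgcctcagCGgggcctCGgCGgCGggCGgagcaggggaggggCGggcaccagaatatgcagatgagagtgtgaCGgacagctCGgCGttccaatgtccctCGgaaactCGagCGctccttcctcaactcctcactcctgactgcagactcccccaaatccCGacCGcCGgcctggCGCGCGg
Btla: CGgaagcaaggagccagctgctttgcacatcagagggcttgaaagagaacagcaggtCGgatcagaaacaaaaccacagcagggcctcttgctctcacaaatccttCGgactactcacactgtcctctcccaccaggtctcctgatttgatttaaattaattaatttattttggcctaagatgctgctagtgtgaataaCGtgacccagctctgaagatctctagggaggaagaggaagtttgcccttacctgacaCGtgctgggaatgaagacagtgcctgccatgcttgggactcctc
Atp1b1: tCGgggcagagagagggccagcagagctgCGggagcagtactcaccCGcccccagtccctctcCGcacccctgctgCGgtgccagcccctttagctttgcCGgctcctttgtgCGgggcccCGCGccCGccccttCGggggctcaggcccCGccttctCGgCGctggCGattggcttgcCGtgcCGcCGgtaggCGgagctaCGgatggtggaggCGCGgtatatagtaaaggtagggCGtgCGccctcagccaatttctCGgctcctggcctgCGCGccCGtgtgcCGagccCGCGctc
Gal: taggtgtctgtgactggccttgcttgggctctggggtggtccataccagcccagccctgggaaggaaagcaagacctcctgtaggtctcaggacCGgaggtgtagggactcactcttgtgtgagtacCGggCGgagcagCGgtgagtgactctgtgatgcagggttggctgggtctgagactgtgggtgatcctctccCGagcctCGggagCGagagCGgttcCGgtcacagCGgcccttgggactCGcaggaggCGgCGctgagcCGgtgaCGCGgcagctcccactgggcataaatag
Sphkap: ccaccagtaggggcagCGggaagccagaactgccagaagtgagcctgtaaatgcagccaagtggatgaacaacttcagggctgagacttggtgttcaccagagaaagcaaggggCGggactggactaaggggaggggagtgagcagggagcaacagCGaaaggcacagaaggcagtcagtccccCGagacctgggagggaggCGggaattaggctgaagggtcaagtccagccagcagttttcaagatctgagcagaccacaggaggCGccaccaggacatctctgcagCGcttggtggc
Irx2 and Atp1b1 hold CG pairs along the window, whereas Btla and Sphkap hold few, so both kinds of window were found among falling and among rising genes.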

How the data were processed

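Foreguts of E10.5 embryos were dissected, and RNA was amplified (Ovation RNA-seq v2), prepared with the Nextera XT kit and sequenced as single reads without strand. Trimming used BBDuk, mapping to mm10 used Bowtie2, and the authors' estimated counts came from RSEM (1.3.0 in the submitters' processing notes), deposited as whole numbers per gene symbol without normalization. The annotation behind them was not given in the sources used here. TPM values, which the authors also took from RSEM, served only in an alternative and for gene length. Groups came from the labels.

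Counts were tested with edgeR 4.0.16 in R 4.3.3 (filterByExpr, TMM, quasi-likelihood F test, Benjamini-Hochberg adjustment over 15295 genes). Thresholds of log2 fold change 1 and adjusted p 0.05 follow the study's methods. A gene in a list was called at the adjusted p alone. The standard error is the log2 fold change divided by the square root of F. Positions are from GENCODE on GRCm38, matched for 62 of 62 lower and 45 of 48 higher genes. The 37 gene lists, 27 symbol families and the comparison were chosen with earlier results of these data known. Named were Gli3, genes the study names for these libraries, genes called lower or higher, genes with the largest changes in share of counts, and up to 4 members of a list with the smallest p, with its defining markers. A few others (such as Irx3, Col1a1, Mki67, Dlk1 and Cdkn1a) were named after their values were seen. Replicates were separate dissections. Counting intervals cover counting error only, since amplified reads are not independent molecules. Alternatives were RLE or upper-quartile factors, library size only, other filters, edgeR's likelihood ratio test, limma 3.58.1, DESeq2 1.42.0, a replicate block, sex as a covariate, and leaving out libraries. The fit was tested on simulated data. Some genes are not reported here.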

Additional observations from a re-analysis of the deposited data

How the results depend on the processing

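The counts of genes called lower and higher, and of genes lower and higher at the adjusted p alone, were 18, 21, 62 and 48. Leaving out 1 library gave 0 to 34, 0 to 72, 0 to 98 and 0 to 128, with the least without control 1 and the most without mutant 3. DESeq2 gave 25, 154, 438 and 359, edgeR's likelihood ratio test 31, 165, 170 and 288, and limma-voom 11, 8, 40 and 21. On log2 TPM the counts were 15, 7, 23 and 11 with a pseudocount of 0.1 and 12, 7, 17 and 11 with a pseudocount of 1. Without a filter on low counts they were 22, 49, 125 and 92, and with library size only 13, 14, 36 and 23. Sex as a covariate gave 18, 292, 57 and 373. An unadjusted p under 0.05 in place of the adjusted one gave 48 lower and 424 higher genes of at least 1 log2 unit, and an adjusted p of at most 0.1 gave 25 and 98. The cause of these differences was not tested. RLE and upper-quartile factors, at least 10 counts in every library, leaving out X and Y genes and, chosen after seeing the data, leaving erythroid genes out of the library size kept each count within 1.5 times. The median of all genes moved by at most 0.0246.

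Replicate numbers are shared between groups, but the labels do not tie them to litters or days. Deviations of same-numbered libraries correlated at 0.0743, 0.186 and 0.191 for numbers 1, 2 and 3, so the numbers were not taken to pair the libraries, although each control correlated best with the mutant of its own number. With the replicate number as a block, 10 genes were called lower and 30 higher, and 30 were lower and 52 higher at the adjusted p alone.

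With 3 libraries in each group, surplus heart and neuron RNA in 1 mutant each, low red blood cell RNA in 1 control and Xist in 2 mutants and 15.4 to 17.99 M counts per library, spread between libraries limits most comparisons. A gene under about 1 CPM rests on few counts, and its fold change depends on them. Reads of antisense and near-identical genes were not separated.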

Other observations

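Of the 5 genes whose mean share of counts rose most, Xist and 4 named only by a sequence accession, none passed the test. Of the 5 whose share fell most, 1 was named only by an accession and Lars2 fell from 4.20 to 4.02% of counts with overlap. The others were Gapdh, from 0.419 to 0.363% of counts, Npm1, a nucleolar chaperone, from 0.288 to 0.228%, and Tuba1b, a tubulin, from 0.231 to 0.184%. In all 3 each mutant lay below each control. Npm1 had 3056, 2832 and 2738 CPM in controls against 2381, 2218 and 2264 CPM in mutants (adjusted p = 0.0611). Tuba1b had 2379, 2349 and 2188 CPM in controls against 1865, 1798 and 1864 CPM in mutants (adjusted p = 0.056) and Gapdh 4159.7, 4272 and 4126 CPM in controls against 3745, 3566 and 3629 CPM in mutants (adjusted p = 0.123).

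Ctsd, the lysosomal protease cathepsin D, had 109, 110.0 and 109 CPM in controls against 138, 143 and 143 CPM in mutants (log2 fold change 0.37, adjusted p = 0.0364), with an SD of 0.821 CPM in the controls. Xpr1, a phosphate exporter, had 97.3, 93.2 and 99.5 CPM in controls against 124, 135 and 126 CPM in mutants (log2 fold change 0.41, adjusted p = 0.0405). Dab2, an adaptor of endocytosis, had 56.8, 66.7 and 69.9 CPM in controls against 97.0, 95.6 and 97.9 CPM in mutants (log2 fold change 0.59, adjusted p = 0.0367). Genes named only by a sequence accession had 859 of 1228 tested members above 0. Their median log2 fold change was 0.18, and -0.03 with sex as a covariate. Of the 1228, 3 rose at the adjusted p, against 0.314% of all genes. Interferon and antigen presentation genes had 15 of 17 above 0 (median 0.27), and immediate early genes 14 of 16 (median 0.32). In these lists edgeR's test called 0 genes. At an unadjusted p under 0.05, 3 and 5 were higher, against 9.23% of all genes. DESeq2 called 0 and 2 higher, against 359 of the 15295 genes.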
